A study of Rattus norvegicus with 63 samples.

Results

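The genes described here encode 7 proteins of the neuronal surface and the synapse: neuroligin 3 (Nlgn3), the neuronal pentraxin receptor (Nptxr), delta-catenin (Ctnnd2), the neural cell adhesion molecule (Ncam1), neuropilin 1 (Nrp1), syndecan 3 (Sdc3) and the chondroitin sulphate proteoglycan neuroglycan C (Cspg5). They were taken as every probe set whose only gene symbol in the array's annotation is one of these names, which gave 7 of the 720 genes with a symbol and 11 of the 1263 probe sets that are not controls. The genes were put together with their signals in the lateral hypothalamus already known, from the comparisons of access groups there, from the test that sets this region against the others, and, for Nptxr, from its level in the amygdala. For Ctnnd2, Ncam1 and Cspg5 the values that led to the choice are not known. Their comparisons of access groups and of regions are therefore given without p-values. All these values are a description: where probe sets past a threshold are counted among them, the share of all probe sets stands beside the count and nothing is read from it.

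The study measured RNA in 6 brain regions of rats that had worked for intravenous cocaine, 0.25 mg per injection on a continuous schedule. Long access rats had 6 h of self-administration per day, short access rats had 1 h per day, and no access rats had 0 h per day and were drug-naive, with 8 rats in each access group. Labelled copies of the tissue RNA were put on 63 Affymetrix rat neurobiology arrays. Lateral hypothalamus, nucleus accumbens and amygdala had 4 arrays per access group, and the 3 remaining regions (septum, medial prefrontal cortex and ventral tegmental area) had 3. The labels do not say whether an array held RNA of 1 rat or of several, or which arrays came from the same rats, so the p-values below measure the spread between arrays. They also give no strain, age or time between the last session and dissection.

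Synaptic adhesion proteins hold the pre- and postsynaptic membranes together and help to set which receptors gather there. Neuroligins sit in the postsynaptic membrane and bind presynaptic neurexins, and the neuronal pentraxin receptor anchors secreted pentraxins that cluster AMPA-type glutamate receptors. Delta-catenin links cadherins to the cytoskeleton of dendrites, the neural cell adhesion molecule joins membranes by binding itself, and neuropilin 1 is a receptor for secreted semaphorins and for vascular endothelial growth factor. Syndecan 3 and neuroglycan C span the membrane and carry heparan sulphate and chondroitin sulphate chains; in mice, syndecan 3 of the hypothalamus takes part in the control of feeding.

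Values are log2 of a signal rescaled so that the trimmed mean of each array is 500, with signals below 32 set to 32, which is 5 on the log2 scale. Nlgn3 (U41663_at), Ctnnd2 (AB008752_at), Nrp1 (AF016296_at), Sdc3 (X63143_s_at) and Cspg5 (E13541cds_s_at) had 1 probe set each. Nptxr had 3, called here Nptxr-A (rc_AI045501_s_at), Nptxr-B (rc_AI228113_s_at) and the dim set (AF005099_at). Ncam1 also had 3, called Ncam1-A (H33836_s_at), Ncam1-B (rc_AI137246_s_at) and Ncam1-C (X06564_at). In RefSeq (GRCr8) the genes lie on chromosome X (Nlgn3, 70469251 to 70497380), 7 (Nptxr, 113217046 to 113235122), 2 (Ctnnd2, 82879469 to 83727409), 19 (Nrp1, 73256557 to 73411705) and 5 (Sdc3, 148249792 to 148282524). Ncam1, at 58762088 to 59062131, and Cspg5, at 119098932 to 119113191, are both on chromosome 8. Probe sets bind with different strength, so their levels were not compared with each other. A probe set was tested in a region if its mean there reached a signal of 100. The dim Nptxr set averaged 5.74 over the 63 arrays, lay at the lower limit of 32 on 9 of them and was tested in 0 regions. The other 10 were tested in lateral hypothalamus, nucleus accumbens, amygdala and septum, 8 of them in ventral tegmental area (not Nlgn3 and Sdc3) and 9 in medial prefrontal cortex (not Ncam1-A).

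Some arrays stood apart from the rest of the series. In the lateral hypothalamus, 6 antisense control probe sets averaged 6.75 ± 0.15 on long access arrays and 6.84 ± 0.17 on short access arrays, against 8.13 ± 0.21 on no access arrays (SD, n = 4 each), and 9 bacterial spike-in controls averaged 11.39 ± 0.12 and 11.61 ± 0.27, against 12.05 ± 0.14. The no access arrays of this region therefore differed from the others in control probe sets. Of these, only the spike-in set measures material that does not come from the rat. After the rescaling, its level also depends on the rat signal of the array. In the ventral tegmental area the same controls were highest with long access, at 8.04 ± 0.19 and 12.32 ± 0.11, against 7.10 ± 0.03 and 11.55 ± 0.14 with no access (SD, n = 3 each). The 3 medial prefrontal cortex arrays numbered 3, 1 per access group, had log2 ratios of 3' to 5' actin probe sets of 1.35 to 1.93, against -0.01 to 0.78 on the other 6 arrays of the region and -0.28 to 0.62 in the other 5 regions. The labels of lateral hypothalamus, nucleus accumbens, ventral tegmental area and medial prefrontal cortex were checked with 13 marker probe sets, each of which had its highest mean in the region it marks; the labels of amygdala and septum were not checked.

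In the lateral hypothalamus of long access rats, Nlgn3 and Sdc3 had the widest differences from no access rats among the 10 probe sets. Nptxr, Ctnnd2 and Cspg5 were higher by about the same smaller amount, and Nrp1 was lower. Nlgn3 had log2 signals of 5.28, 7.05, 5.82 and 5.91 on the 4 no access arrays, 6.74, 6.62, 6.32 and 7.17 on the short access arrays, and 7.84, 8.40, 7.87 and 7.76 on the long access arrays. Every long access array lay above every array of the other groups, while short access overlapped no access through the single no access array at 7.05. On the signal scale, long access arrays read 216 to 339, short access arrays 79.6 to 144 and no access arrays 38.8 to 132. The mean was 7.97 ± 0.29 with long access and 6.01 ± 0.74 with no access (SD, n = 4 each), a difference of 1.95 ± 0.32 (SE of the limma fit), and long access exceeded short access by 1.25 ± 0.32, or 2.39-fold. The 3 lowest no access arrays fell under the signal of 100 used as a filter, and the group means of 7.97, 6.71 and 6.01 (long, short and no access) stand against 6.64 for that filter on the log2 scale, so Nlgn3 was tested here through its cocaine groups.

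**Figure D1:**
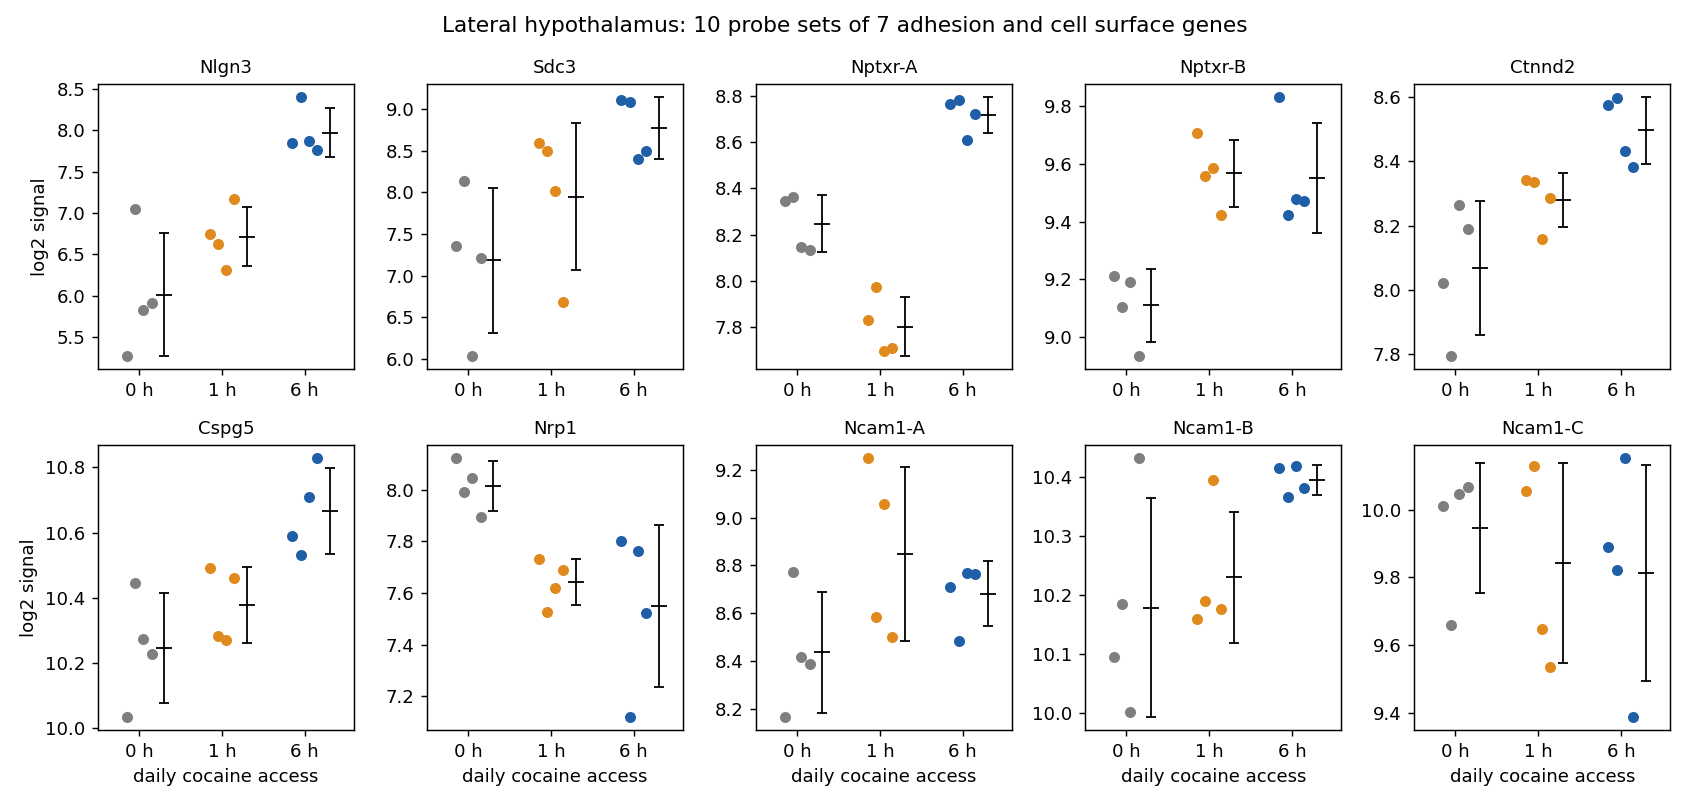
Log2 signal of 10 probe sets in the lateral hypothalamus by daily cocaine access (0 h no access, 1 h short access, 6 h long access); points are single arrays, bars are mean ± SD of 4 arrays, and each panel has its own axis. Nlgn3 with long access lies at 7.76 to 8.40, above all arrays of both other groups, and Nptxr-A is lowest with short access.

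The proteoglycan Sdc3 read 7.35, 8.14, 6.03 and 7.22 on the no access arrays, 8.60, 8.50, 8.02 and 6.68 on the short access arrays, and 9.11, 9.08, 8.40 and 8.50 on the long access arrays. Long and no access did not overlap, and short access overlapped both. Its mean was 8.77 ± 0.38 with long access and 7.18 ± 0.87 with no access (SD, n = 4 each), a difference of 1.59 ± 0.43 (SE). Cspg5, the chondroitin sulphate proteoglycan, read 10.03, 10.45, 10.27 and 10.23 with no access, 10.49, 10.28, 10.27 and 10.46 with short access, and 10.59, 10.53, 10.71 and 10.83 with long access. All 4 long access arrays were above the other 8. The difference between long and no access was 0.42 ± 0.10 (SE), or 1.34-fold, and the difference between short and no access was 0.13.

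The bright Nptxr probe sets did not move together. With no access Nptxr-A read 8.35, 8.36, 8.15 and 8.14, with short access 7.83, 7.97, 7.70 and 7.71, and with long access 8.76, 8.78, 8.61 and 8.72. Its 3 groups did not overlap, with short access lowest and long access highest. Long access was above no access by 0.47 ± 0.11 and above short access by 0.92 ± 0.11, and short access differed from no access by -0.44 ± 0.11 (SE). Nptxr-B read 9.21, 9.10, 9.19 and 8.93 with no access, 9.71, 9.56, 9.58 and 9.42 with short access, and 9.83, 9.42, 9.48 and 9.47 with long access. Here both cocaine groups lay above no access, by 0.44 ± 0.11 with long access and 0.46 ± 0.11 with short access, and the 2 cocaine groups differed by -0.02. In the short access comparison the probe sets of this gene thus had opposite signs, and only the difference between long and no access had the same sign in both. The dim Nptxr set, at 5.26 to 6.35 with long access, 5.63 to 6.44 with short access and 5.21 to 7.23 with no access, was too weak to test.

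Ctnnd2, the cadherin partner, read 8.02, 7.79, 8.26 and 8.19 with no access, 8.34, 8.34, 8.16 and 8.28 with short access, and 8.58, 8.60, 8.43 and 8.38 with long access. The long access arrays lay above all others, 0.43 ± 0.12 (SE) above no access. The semaphorin receptor Nrp1 read 8.12, 7.99, 8.05 and 7.89 with no access, 7.73, 7.53, 7.62 and 7.69 with short access, and 7.80, 7.12, 7.76 and 7.52 with long access. All 8 arrays of cocaine rats were below the 4 no access arrays, while the cocaine groups overlapped; the differences from no access were -0.46 with long access and -0.37 with short access. The 3 Ncam1 probe sets differed between long and no access by 0.25 ± 0.17, 0.22 ± 0.10 and -0.13 ± 0.17 (A, B and C, SE). None of the 3 separated these groups, and Ncam1-B had an SD of 0.03 with long access and 0.19 with no access (n = 4 each).

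The promoters are shown for the genes with the widest rise, Nlgn3 and Sdc3, and for the one that was lower, Nrp1, to set their base composition side by side. Each sequence is from RefSeq (GRCr8, plus strand) and runs from 250 bases before to 50 bases after the gene start of the table, and capitals mark GC boxes (GGGCGG on either strand).
Nlgn3, chrX:70469228-70469527: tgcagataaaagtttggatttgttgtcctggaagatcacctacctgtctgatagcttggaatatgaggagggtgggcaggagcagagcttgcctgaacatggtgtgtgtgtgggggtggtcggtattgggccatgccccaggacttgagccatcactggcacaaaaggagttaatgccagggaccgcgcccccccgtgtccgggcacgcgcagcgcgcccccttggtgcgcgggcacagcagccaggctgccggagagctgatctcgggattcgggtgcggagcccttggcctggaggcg
Sdc3, chr5:148249542-148249841: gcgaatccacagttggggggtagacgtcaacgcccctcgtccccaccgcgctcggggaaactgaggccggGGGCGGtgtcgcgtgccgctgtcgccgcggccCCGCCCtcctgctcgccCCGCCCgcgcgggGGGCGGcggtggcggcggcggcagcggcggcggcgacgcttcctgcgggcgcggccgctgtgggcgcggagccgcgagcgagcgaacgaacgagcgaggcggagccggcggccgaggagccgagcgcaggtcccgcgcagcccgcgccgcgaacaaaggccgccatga
Nrp1, chr19:73256307-73256606: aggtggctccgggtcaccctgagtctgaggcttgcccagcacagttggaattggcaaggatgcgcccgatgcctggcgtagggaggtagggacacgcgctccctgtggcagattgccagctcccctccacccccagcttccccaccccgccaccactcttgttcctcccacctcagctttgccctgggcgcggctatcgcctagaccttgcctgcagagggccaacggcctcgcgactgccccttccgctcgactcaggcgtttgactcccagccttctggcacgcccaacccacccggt
Sdc3 held 4 GC boxes and 57 CG pairs at 79.3% G and C, and 99.9% of 33469 rat promoters of this length held no more CG pairs than it did. Nlgn3 and Nrp1 held 0 GC boxes, with 16 and 18 CG pairs at 61.7% and 66.3% G and C. Among all promoters 33.1% held a GC box, and the median was 7 CG pairs and 51.7% G and C. The cyclic AMP response element TGACGTCA, found in 1.83% of promoters on either strand, was in 0 of the 3 sequences. The start used for the Nlgn3 promoter lies within the annotated gene. Ctnnd2, the other member with a promoter sequence, held 1 GC box and 25 CG pairs.

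Between long and no access in the lateral hypothalamus, 7 of the 10 probe sets had a limma adjusted p under 0.05, 6 higher and 1 lower, where 29.7% of all 718 probe sets did, 13.4% higher and 16.3% lower. The 10 had a median difference of 0.43, against -0.03 for all 718. Between short and no access 2 of 10 passed (Nptxr-A lower, Nptxr-B higher) with 22.4% of all, and between long and short access 2 of 10 (Nlgn3 and Nptxr-A, both higher) with 8.91% of all. Most of the genes were chosen on these comparisons, so nothing is read from the counts. The short access count was 4 when no access array 2 or short access array 4 was left out. The count between long and short access was 1 when any of short access arrays 1, 2 and 3 or of long access arrays 1 and 2 was left out. In 1 fit of all 63 arrays, where the other regions enter the spread, the counts were 2, 0 and 0.

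The control probe sets of this region were higher with no access, as given above. With the mean of the spike-in controls as a covariate, the difference between long and no access was 2.02 ± 0.64 for Nlgn3, 0.58 ± 0.22 for Nptxr-A, 0.46 ± 0.22 for Nptxr-B, 0.66 ± 0.23 for Ctnnd2 and -0.47 ± 0.31 for Nrp1 (SE). It was 0.64 ± 0.83 for Sdc3 and 0.24 ± 0.19 for Cspg5, both smaller than without the covariate. The Ncam1 probe sets turned their signs, to -0.54 ± 0.24, -0.02 ± 0.17 and 0.09 ± 0.33 (A, B and C, SE). In that fit 0 of the 10 passed between long and no access, with 8.64% of all probe sets, and between long and short access 1 of 10 passed, Nptxr-A at 0.95 ± 0.13, with 5.99% of all. Marker genes of other cells also differed between the groups: the summed signal of 7 astrocyte genes was 47518 to 59545 with long access, 53236 to 65487 with short access and 66841 to 75267 with no access. Microglia genes (3) summed to 1861 to 2392 with long access and 3137 to 3634 with no access, and oligodendrocyte genes (6) to 40787 to 46885 and 48097 to 54446. None of these genes was at the lower limit. The sums follow their brightest genes, and single genes went both ways between long and no access by limma. Of the 7 astrocyte genes Kcnj10 passed as higher (0.91) and Apoe, Vim and Glul as lower (-0.61, -0.84 and -0.21). Of the 6 oligodendrocyte genes Sox10 and Mag passed as higher (1.14 and 0.55) and Mbp, Mog and Tf as lower (-0.36, -0.30 and -0.19), while both microglia genes tested, B2m and Il18, were lower (-0.67 and -0.59). The part of these shifts in the differences above was not tested, and in tissue RNA fewer cells of a type and less RNA per cell cannot be told apart.

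In the septum both bright Nptxr probe sets fell with cocaine access, Nptxr-A with short and long access and Nptxr-B with long access. The values named for the choice of Nptxr are from lateral hypothalamus and amygdala. The members were chosen with earlier results of these data known, so the septum p-values of Nptxr are also a description. Nptxr-A read 10.16, 10.05 and 10.01 with no access, 8.92, 8.93 and 8.95 with short access, and 9.24, 9.27 and 9.10 with long access. Both cocaine groups were below every no access array, and the short access arrays spanned 8.92 to 8.95. The mean was 9.21 ± 0.09 with long access and 10.07 ± 0.08 with no access (SD, n = 3 each), a difference of -0.87 ± 0.09 (SE), adjusted p = 0.000121 by limma. With short access it was 8.93 ± 0.01, a difference of -1.14 ± 0.09 from no access, adjusted p = 1.11e-05 by limma, or 0.454-fold the signal with no access. Long and short access differed by 0.27, adjusted p = 0.153 by limma.

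Nptxr-B also fell with long access in the septum. It read 10.66, 10.36 and 10.65 with no access, 10.41, 9.83 and 10.12 with short access, and 10.15, 9.67 and 9.72 with long access. The long access arrays lay below all no access arrays, and the short access group overlapped both. The difference between long and no access was -0.71 ± 0.15 (SE), adjusted p = 0.033 by limma, and between short and no access -0.44, adjusted p = 0.198 by limma. By limma this call was lost when no access array 1 (adjusted p = 0.077) or 3 (0.0888) was left out, and likewise for long access arrays 2 (0.109) and 3 (0.10). With the spike-in covariate, the limma adjusted p was 0.263 for Nptxr-B and 0.017 and 5.8e-05 for Nptxr-A with long and short access, and in the fit of all 63 arrays it was 0.535 and 0.317 for Nptxr-A. These 2 calls were 2 of 10 probe sets between long and no access, where 2.31% of 736 passed, and Nptxr-A was 1 of 10 between short and no access, where 1.9% passed. Between long and short access 0 of 10 passed, with 2.04% of all.

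**Figure D2:**
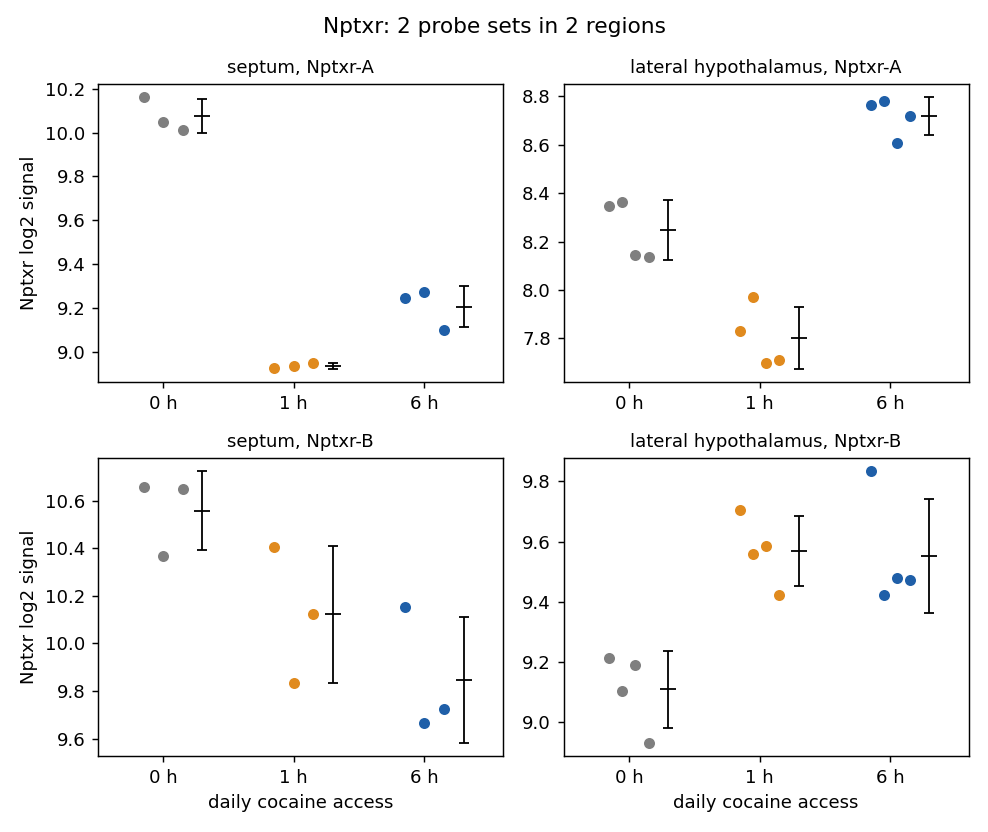
Log2 signal of Nptxr-A and Nptxr-B in septum (left, 3 arrays per group) and lateral hypothalamus (right, 4 per group) by daily access (0 h no access, 1 h short access, 6 h long access); points are arrays and bars mean ± SD. In the septum both probe sets are highest with no access, and in the lateral hypothalamus Nptxr-A is highest with long access and lowest with short access.

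Sdc3 and Nlgn3 did not pass in the septum. Sdc3 read 9.01, 8.98 and 8.80 with no access, 8.84, 8.54 and 8.57 with short access, and 8.62, 8.13 and 8.45 with long access, with a difference of -0.53 ± 0.14 (SE) between long and no access, adjusted p = 0.069 by limma. This difference passed by limma with array weights (-0.59, adjusted p = 0.036) and without long access array 1 (-0.64, adjusted p = 0.0496). Nlgn3 read 8.49, 8.19 and 8.46 with no access, 8.01, 8.09 and 7.93 with short access, and 8.19, 8.10 and 8.06 with long access. Its short access arrays were all below no access (difference -0.37, adjusted p = 0.187 by limma), and its long access difference was -0.26, adjusted p = 0.289 by limma. Between long and no access 4 of 10 probe sets were lower on every array, where 11.7% of all 736 were. Other gene groups varied in the same tissue. Summed signals of 3 cortical markers (Cck, Itpka and Stx1a) were 1160 to 1514 with long access and 1459 to 1708 with no access, which overlapped. With short access they were 1185 to 1319, below no access. None of the 3 passed there by limma. The 7 astrocyte genes summed to 55266 to 58873, 49144 to 53587 and 48336 to 52247 (long, short and no access). Those that passed by limma between long and no access were Kcnj10, S100b and Vim, all higher (0.76, 0.32 and 0.33). Nptxr has its high levels in amygdala and cortex (below), and the part of cortical tissue in the septum values was not tested.

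In the ventral tegmental area Cspg5 was the 1 member of 8 tested that passed between long and no access, where 2.91% of 722 probe sets did; since the values that led to its choice are not known, this is a description. It read 9.43, 9.63 and 9.36 with no access, 9.58, 9.89 and 9.69 with short access, and 10.07, 10.06 and 10.35 with long access. Long access arrays were above all others and short access overlapped no access. The mean was 10.16 ± 0.16 with long access and 9.47 ± 0.14 with no access (SD, n = 3 each), a difference of 0.69 ± 0.12 (SE), or 1.61-fold. The control probe sets of this region were in the same order, and with the spike-in covariate the Cspg5 difference was 0.25 ± 0.41 (SE). In that fit 0 of 8 passed between long and no access, with 0% of 722 probe sets. Spike-in levels were 11.40 to 11.68 with no access, 11.85 to 12.01 with short access and 12.25 to 12.44 with long access. These did not overlap, so spike-in level and access cannot be told apart here. The part of the controls in the Cspg5 difference was not tested further. Nptxr-A differed by 0.26 (adjusted p = 0.461 by limma) and Nrp1 by -0.26 (adjusted p = 0.501 by limma) between long and no access. Between short and no access and between long and short access 0 of 8 passed, with 0.831% and 2.63% of all probe sets.

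**Figure D3:**
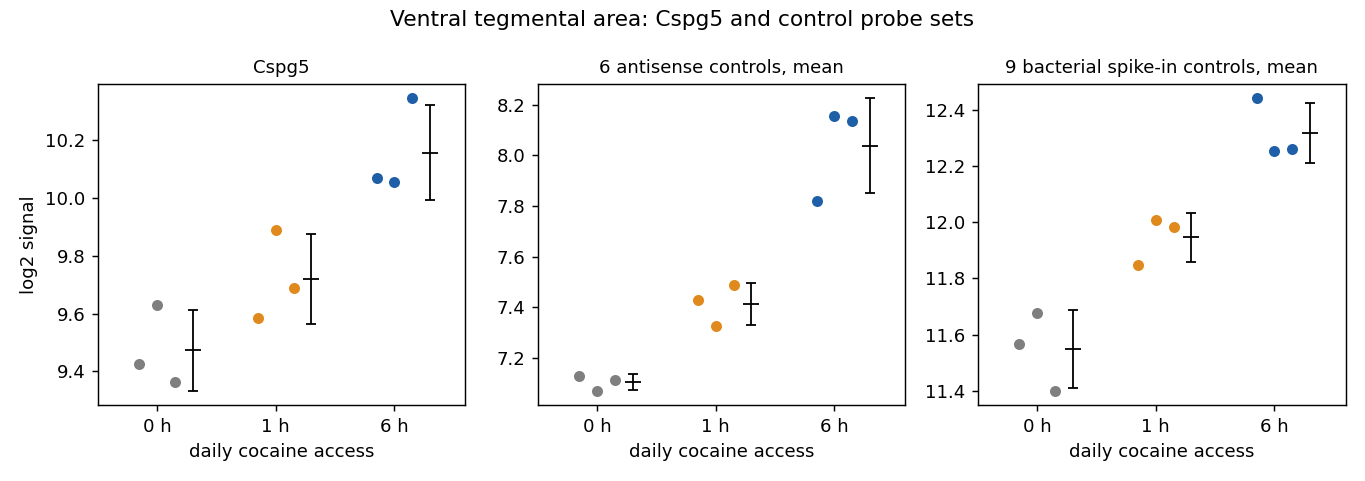
Log2 signal in the ventral tegmental area of Cspg5 (left), of the mean of 6 antisense controls (middle) and of the mean of 9 bacterial spike-in controls (right) by daily access (0 h no access, 1 h short access, 6 h long access); points are arrays, bars mean ± SD of 3. Cspg5 and both sets of controls have their highest values with long access and their lowest group mean with no access.

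In the nucleus accumbens 0 of 10 probe sets passed in any of the 3 comparisons, and 0% of 738 did. At an unadjusted p under 0.05 by limma, 2 of 10 passed between long and no access, with 119 of 738 in all, and these were Nptxr-A and Cspg5. Between short and no access 0 of 10 did, with 75 of all, and between long and short access 2 of 10, Ncam1-B at -0.42 ± 0.12 and Cspg5 at 0.23 ± 0.10 (SE), with 71 of all. Nptxr-A read 7.90, 8.08, 7.85 and 7.96 with no access, 8.23, 8.03, 8.07 and 7.86 with short access, and 8.23, 8.29, 8.22 and 8.32 with long access. All long access arrays were above no access, a difference of 0.32 ± 0.11 (SE), adjusted p = 0.186 by limma. Cspg5 read 10.90, 10.63, 10.69 and 10.67 with long access and 10.43, 10.23, 10.45 and 10.34 with no access, again without overlap, a difference of 0.36 ± 0.10 (SE). These were 2 of 10 probe sets without overlap, where 9.76% of all had none. Nptxr-B, of the same gene as Nptxr-A, went the other way in value, at 7.74 to 8.61 with long access and 7.84 to 8.75 with no access. Nlgn3, at 7.27 to 8.11 with long access and 7.77 to 8.16 with no access, and Sdc3, at 7.15 to 8.12 and 6.89 to 8.45, overlapped between all groups.

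In the amygdala 0 of 10 passed in the 3 comparisons by limma, with 0.137%, 0% and 0% of 732 probe sets (long against no, short against no and long against short access). At an unadjusted p under 0.05 the members again gave 0, and all probe sets 44, 32 and 30. Nlgn3 read 6.89, 7.56, 6.67 and 6.36 with no access, 7.65, 7.62, 7.35 and 7.09 with short access, and 6.62, 7.96, 7.15 and 7.45 with long access, so that its groups overlapped. Sdc3 was low on 1 array of each group: 6.95 with long access, 5.38 with short access and 6.14 with no access, while the other 9 arrays read 7.66 to 8.53. Cspg5 had its lowest value of each group on the same 3 arrays, at 10.16, 9.81 and 9.72. The 2 proteoglycans thus fell on the same arrays whatever the access.

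In the medial prefrontal cortex 0 of 9 passed and 0% of 680 probe sets did, in each comparison by limma; at an unadjusted p under 0.05 the members gave 1 between long and no access (Nptxr-B) and 0 in the others, against 4, 2 and 2 of all. The values separated by array number. On the 3 arrays numbered 3, Sdc3 read 5.06 to 5.16, against 6.52 to 8.24 on the other 6, a mean difference of -2.61. The mean difference was -1.53 in Nptxr-A, -1.41 in Cspg5 and -1.32 in Ctnnd2, each without overlap, and Ncam1-A was at the lower limit on all 3 arrays. Nptxr-B, Ncam1-C and Nrp1 overlapped, with mean differences of 0.14, 0.08 and -0.05. Thus 4 of the 9 tested probe sets were lower on all 3 number 3 arrays than on the rest, where 18.1% of all were lower and 19% higher on all 3, and the probe sets of Nptxr again parted. These are the arrays with the high 3' to 5' actin ratio, whose part in the low values was not tested. Nptxr-B read 12.60, 12.51 and 12.45 with long access and 11.72, 11.91 and 12.42 with no access, above it on every array, a difference of 0.51 ± 0.19 (SE), adjusted p = 0.996 by limma. Without the number 3 arrays 0 of 698 probe sets passed between long and no access, Nptxr-B differed by 0.74 ± 0.14 (SE), adjusted p = 0.295 by limma, and Sdc3 by -0.97 ± 0.39 (SE), adjusted p = 0.625 by limma.

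**Figure D4:**
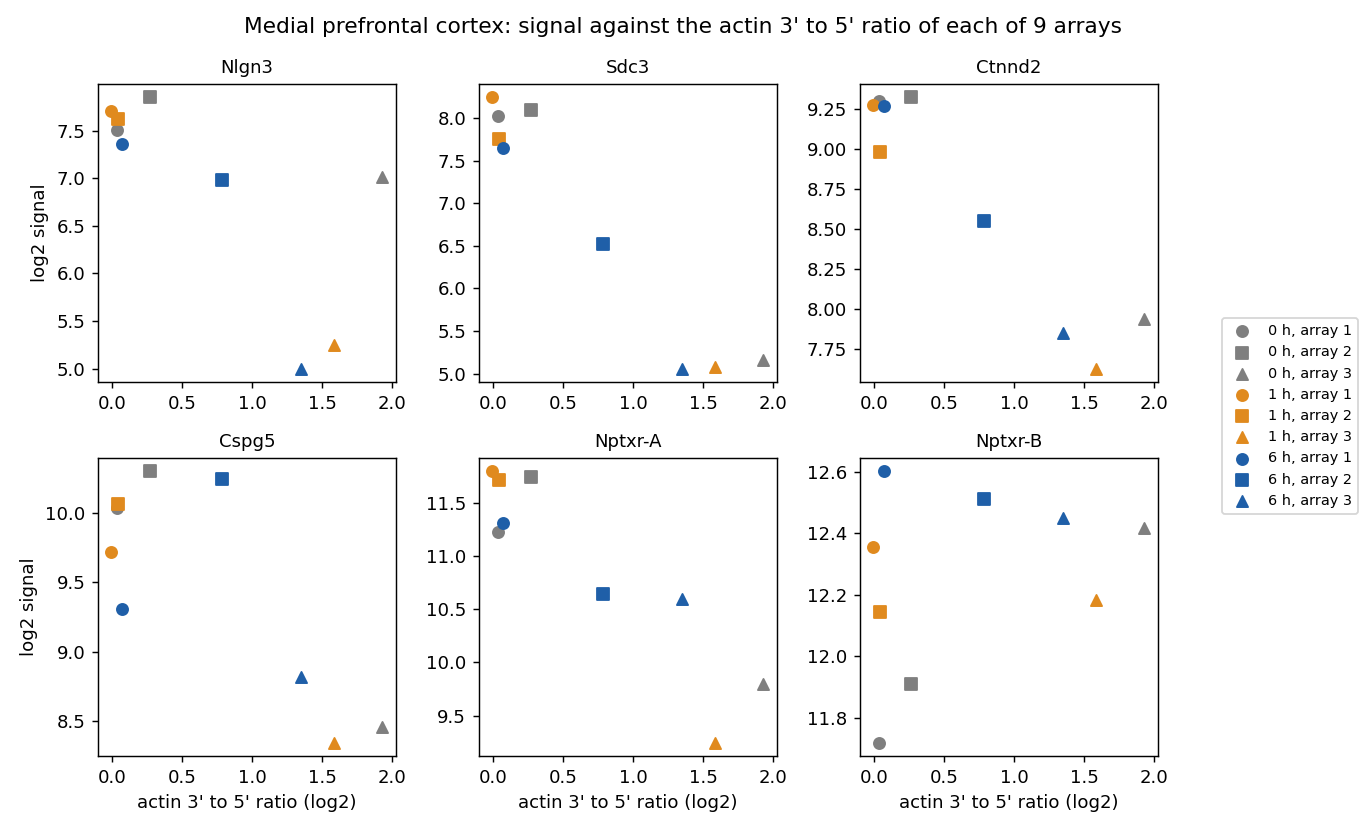
Log2 signal of 6 probe sets in the 9 medial prefrontal cortex arrays against the log2 ratio of 3' to 5' actin signal of the same array; colour gives daily access (0 h no access, 1 h short access, 6 h long access) and the symbol the array number. The number 3 arrays (triangles) have ratios of 1.35 to 1.93 and the lowest signals of Sdc3, Ctnnd2, Cspg5 and Nptxr-A, whereas Nptxr-B lies within the range of the other arrays.

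Whether the lateral hypothalamus differed from the mean of the other 5 regions in its difference between long and no access was taken from 1 fit of all 63 arrays. By limma, 12.8% of 858 probe sets passed, and 2 of the 10 did, Nlgn3 at 2.19 ± 0.44 and Nrp1 at -0.45 ± 0.14 (SE); the genes were chosen with this comparison known, so its values are a description. The Nrp1 value was -0.42, -0.44 and -0.31 without no access array 1, no access array 3 or long access array 2 of the lateral hypothalamus, and then no longer passed. Sdc3 reached 1.86 ± 0.66 and Nptxr-B 0.56 ± 0.21 (SE), and neither passed. Without the 3 medial prefrontal cortex arrays numbered 3, the count was 5 of 10, with 19.5% of 857: Nlgn3 at 2.09, Sdc3 at 1.92, Nptxr-A at 0.62, Ctnnd2 at 0.53 and Nrp1 at -0.45. Within single regions, the Nlgn3 difference was 0.42 in amygdala, -0.19 in nucleus accumbens, -0.26 in septum, -1.01 in medial prefrontal cortex (-0.51 ± 0.28, SE, without its number 3 arrays) and, where it was too dim to test, -0.15 in ventral tegmental area.

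Each region was set against the mean of the other 5, with access groups weighted alike; 42 of the 60 comparisons passed by limma, which were 7, 6, 4, 8, 8 and 9 of 10 in lateral hypothalamus, nucleus accumbens, amygdala, septum, medial prefrontal cortex and ventral tegmental area. Of all 858 probe sets, 55.5%, 65.9%, 50.1%, 50.9%, 67.2% and 68.5% passed there, so differences between regions were common on the whole array, and nothing particular to these genes is read from the counts. Means below are over all arrays of a region, with the SD over 12 arrays in lateral hypothalamus, nucleus accumbens and amygdala and 9 in the others.

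Nptxr had the steepest map. Nptxr-B averaged 12.52 ± 0.33 in amygdala and 12.26 ± 0.29 in medial prefrontal cortex, which overlapped, then 10.18 ± 0.38 in septum, 9.41 ± 0.26 in lateral hypothalamus, 8.36 ± 0.19 in ventral tegmental area and 8.33 ± 0.36 in nucleus accumbens (SD). No septum array reached the medial prefrontal cortex range, and no ventral tegmental area array reached the lateral hypothalamus range, while the 2 lowest regions did not separate. Nptxr-A gave the order 11.46 ± 0.49, 10.90 ± 0.91, 9.40 ± 0.52 and 8.26 ± 0.40 for the same 4 regions, then 8.09 ± 0.17 in nucleus accumbens and 7.75 ± 0.14 in ventral tegmental area (SD). Against the mean of the other regions, medial prefrontal cortex was higher by 2.50 ± 0.10 in Nptxr-B and 1.91 ± 0.16 in Nptxr-A (SE), adjusted p = 1.14e-28 and 2.43e-15 by limma. The difference was -2.22 and -1.47 in nucleus accumbens and -2.17 and -1.87 in ventral tegmental area (Nptxr-B and Nptxr-A). The amygdala difference, 2.81 in Nptxr-B and 2.58 in Nptxr-A, was part of how the gene was chosen.

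**Figure D5:**
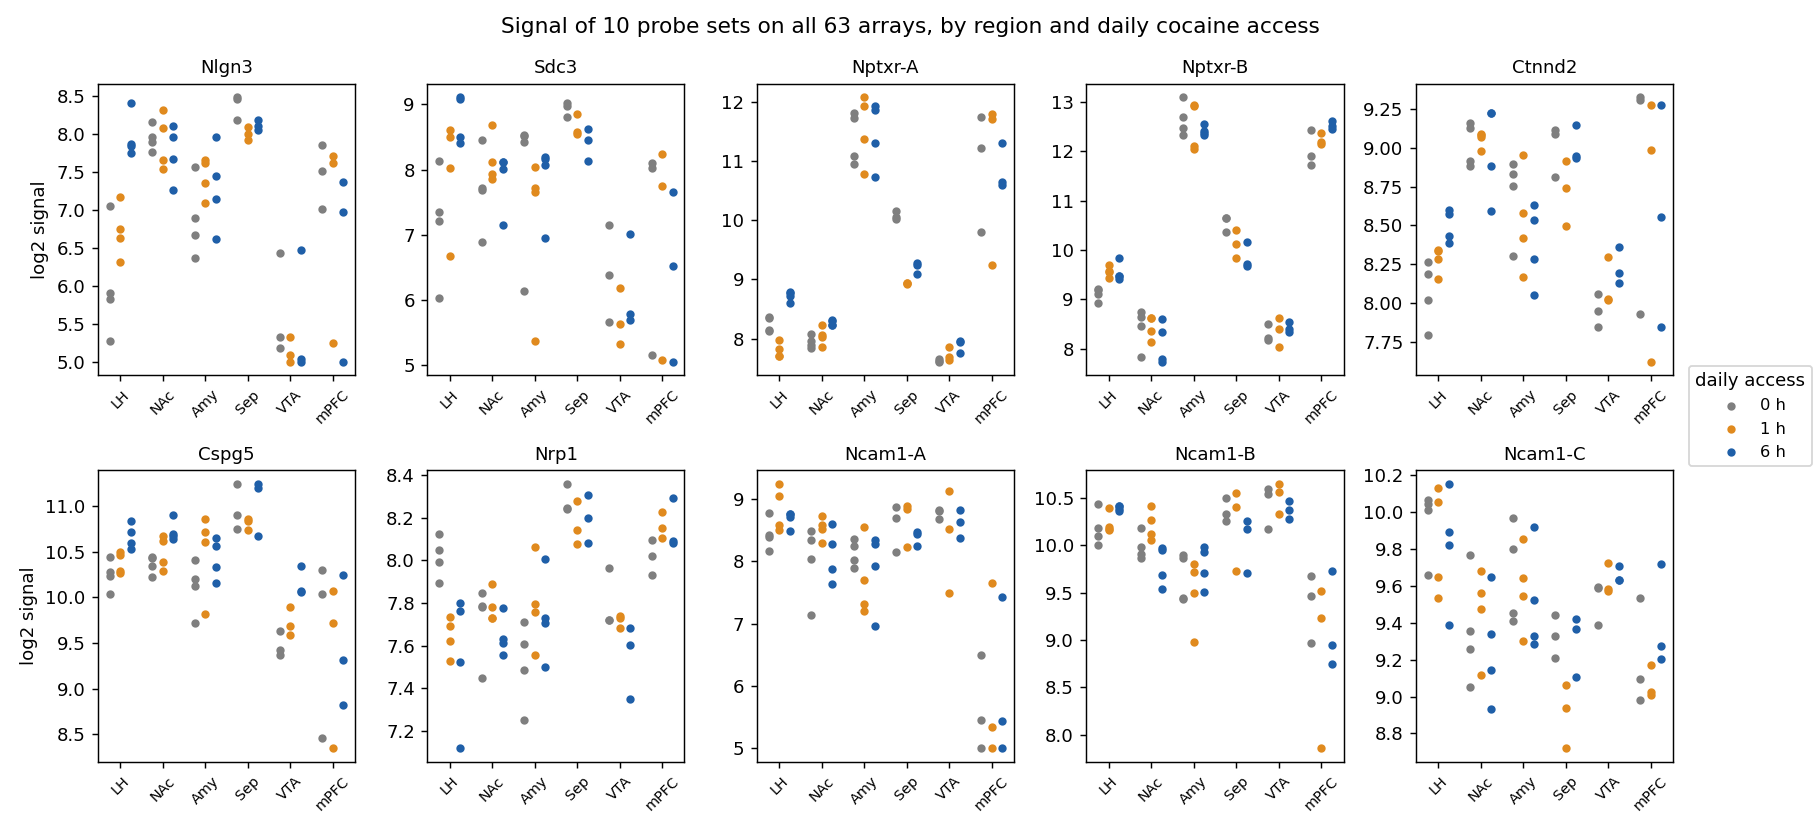
Log2 signal of 10 probe sets on 63 arrays in lateral hypothalamus (LH), nucleus accumbens (NAc), amygdala (Amy), septum (Sep), ventral tegmental area (VTA) and medial prefrontal cortex (mPFC); each point is an array, coloured by daily access (0 h no access, 1 h short access, 6 h long access), and each panel has its own axis. Both Nptxr probe sets are highest in amygdala and medial prefrontal cortex, whereas Nlgn3 and Sdc3 have their highest mean in septum and their lowest in ventral tegmental area.

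Nlgn3 and Sdc3 shared the ends of their order. Nlgn3 averaged 8.17 ± 0.19 in septum, 7.86 ± 0.30 in nucleus accumbens, 7.20 ± 0.49 in amygdala, 6.92 ± 1.06 in medial prefrontal cortex, 6.90 ± 0.96 in lateral hypothalamus and 5.43 ± 0.59 in ventral tegmental area (SD), and each region overlapped the next. Without its number 3 arrays, medial prefrontal cortex averaged 7.51, above amygdala. Septum differed from the other regions by 1.31 ± 0.20 (SE), adjusted p = 2.69e-07 by limma, and ventral tegmental area by -1.98 ± 0.20 (SE). In ventral tegmental area Nlgn3 and Sdc3 were under the filter and entered this fit through other regions, so their values there are a description. Long access arrays of the lateral hypothalamus read 7.76 to 8.40. All arrays of septum read 7.93 to 8.49, those of nucleus accumbens 7.27 to 8.32 and those of amygdala 6.36 to 7.96, so these ranges overlapped. The 3 lowest no access arrays of the lateral hypothalamus lay in the range of the ventral tegmental area, 5.00 to 6.47. Sdc3 averaged 8.66 ± 0.28 in septum, 7.97 ± 0.96 in lateral hypothalamus, 7.89 ± 0.50 in nucleus accumbens, 7.65 ± 1.00 in amygdala, 6.84 ± 1.40 in medial prefrontal cortex and 6.10 ± 0.64 in ventral tegmental area (SD). Septum differed by 1.37 ± 0.30 (SE), adjusted p = 0.00012 by limma, and ventral tegmental area by -1.71 ± 0.30 (SE). The lower value of medial prefrontal cortex, -0.81 (adjusted p = 0.016 by limma), rested on its number 3 arrays and was 0.06 without them. Leaving out any 1 of these 3 arrays also ended this call, at -0.49, -0.49 and -0.58.

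Across regions, Cspg5, Ctnnd2 and Nrp1 varied less. Cspg5 was highest in septum, at 10.94 ± 0.23, 0.82 ± 0.13 (SE) above the other regions, and lowest in ventral tegmental area and medial prefrontal cortex, at 9.78 ± 0.33 and 9.48 ± 0.77 (SD). The order of these 2 rested on the number 3 arrays of medial prefrontal cortex. Medial prefrontal cortex differed by -0.93 with them and -0.46 without, and ventral tegmental area by -0.56 and -0.65. Ctnnd2 was highest in nucleus accumbens, at 9.02 ± 0.18, and lowest in ventral tegmental area, at 8.10 ± 0.16 (SD). These regions differed from the others by 0.52 ± 0.11 and -0.59 ± 0.12 (SE). The place of medial prefrontal cortex in this order rested on its number 3 arrays: without them it differed by 0.55, against 0.11 with them, and nucleus accumbens by 0.43. Over all access groups, Nrp1 had 2 levels, 8.22 ± 0.10 in septum and 8.11 ± 0.11 in medial prefrontal cortex (SD), and 7.68 to 7.74 in the other 4 regions, which overlapped throughout. Septum and medial prefrontal cortex were higher by 0.43 ± 0.06 and 0.30 ± 0.06 (SE), adjusted p = 1.64e-07 and 4.77e-05 by limma. With no access arrays alone, Nrp1 of the lateral hypothalamus was 0.15 above the other regions, against -0.15 with all groups. Its no access mean was 8.01, beside 8.02 in medial prefrontal cortex, and its short and long access means were 7.64 and 7.55. The lateral hypothalamus thus had the lower level only with its cocaine groups included.

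The Ncam1 probe sets gave different maps. Ncam1-A was low in medial prefrontal cortex, at 5.87 ± 1.06, against 7.90 to 8.66 as means of the other regions, a difference of -2.51 ± 0.20 (SE). Ncam1-B had the same lowest region, at 9.13 ± 0.59, and its highest mean in ventral tegmental area, at 10.44 ± 0.16 (SD). Ncam1-C was lowest in septum, at 9.18 ± 0.24, and highest in lateral hypothalamus, at 9.87 ± 0.26 (SD), which was 0.48 ± 0.08 (SE) above the other regions. The septum was above the other regions in Ncam1-A and Ncam1-B, by 0.69 and 0.32, and below them in Ncam1-C, at -0.35.

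The likeness of patterns was taken as Pearson's r over the 18 means of region and access group, which share arrays and normalization, and is given as a description. Nptxr-A and Nptxr-B had r = 0.97 with each other, and Ncam1-A and Ncam1-B 0.89, while Ncam1-C had 0.42 and 0.40 with these. Sdc3 and Nlgn3 had r = 0.88, Ctnnd2 and Nlgn3 0.85, and Cspg5 and Sdc3 0.80. Among other genes on the array, Nlgn3 was most like Grina (0.97), Nptxr-B most like Grm2 (0.94), a metabotropic glutamate receptor, and Ncam1-B most like Tf (0.94) and Mbp (0.93), which are expressed in oligodendrocytes. Sdc3 and Cspg5 were both most like Atp1b2 (0.93 and 0.95), a subunit of the sodium pump, and Ctnnd2 most like Cx3cl1 (0.90). Nrp1 had the weakest match, Jak1 at 0.74.

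A wider list of synaptic adhesion and matrix genes had 18 of its 101 names on the array, and 13 were tested in the lateral hypothalamus. Between long and no access 1 of 13 passed, with 29.7% of all probe sets: Nrxn2, a presynaptic neurexin of the family that neuroligins bind, at 10.55 ± 0.16 with long access and 10.15 ± 0.07 with no access (SD, n = 4 each), a difference of 0.39 ± 0.08 (SE). Between short and no access 2 of 13 passed, both higher, with 22.4% of all: Nptx2, a secreted pentraxin, by 0.36 ± 0.12, and the matrix proteoglycan Bcan by 0.33 ± 0.07 (SE). In the other 5 regions 0 of the 12 to 13 tested genes passed. Of 14 postsynaptic partner genes 2 were on the array, and 0 passed in any region.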

How the data were processed

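RNA of 6 rat brain regions was measured on 63 one-colour arrays. Per the submitters' processing notes, the deposited intensities come from MAS5; its version, scaling target and detection calls are not given in the sources used here. Each array was rescaled so that the 2% trimmed mean of its 1263 probe sets other than the 59 controls was 500, signals under 32 were set to 32, and log2 was taken. Platform annotation gave 1 symbol to 1137 probe sets, several to 8 and none to 118. Probe sets with a mean of at least the log2 of a signal of 100 were tested in each region with limma 3.58.1 (R 4.3.3), with the 3 access groups, an intensity trend and Benjamini-Hochberg adjustment over all probe sets tested, at 0.05. Region contrasts and the test of the lateral hypothalamus against the other 5 regions came from 1 fit of 63 arrays in 18 groups. That fit held every probe set that reached this mean in at least 1 region. The fits were tested on simulated data. The number of arrays limits the precision. Alternatives were other scalings, floors, filters and weights, a fit of all arrays, a replicate block, a spike-in covariate, leaving out each array, and, chosen after seeing the data, leaving out the 3 medial prefrontal cortex arrays numbered 3. All 7 genes and all their probe sets are named; from the list of adhesion genes, those that passed in the lateral hypothalamus are named (Nptx2 and Bcan, as well as single marker genes of other cells, after their values were seen), and for each member the gene most like it. The members and lists were chosen with earlier results of these data known. Same-numbered arrays did not all correlate above 0.1 in any region, so the main fits have no block. In septum all 9 arrays still correlated best with their own number. Comparisons of Sdc3 and Nptxr-B there did not pass in the main fit and passed with a block, as given at the end. The Sdc3 comparison also passed with array weights and without long access array 1. Promoters are from RefSeq (GRCr8), matched by symbol for 4 of 7 genes.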

Additional observations from a re-analysis of the deposited data

Results flagged for a closer look

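In 11 of 99 groups of 4 arrays, 1 array lay far from the other 3 for a member; chance alone flags about 1 in 20 such groups. In the lateral hypothalamus these were the long access arrays at 8.40 in Nlgn3 and 9.83 in Nptxr-B, the short access array at 10.40 in Ncam1-B, and the no access arrays at 9.66 in Ncam1-C and 5.21 in the dim Nptxr set. In the nucleus accumbens they were a long access array at 7.15 in Sdc3, a short access array at 8.98 in Ctnnd2 and a no access array at 7.45 in Nrp1. In the amygdala all 3 groups had 1 low array in Sdc3, at 6.95 with long access, 5.38 with short access and 6.14 with no access. On these 3 arrays the log2 ratio of 3' to 5' actin signal was -0.10, 0.51 and 0.62, and its part in the low values was not tested.

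The difference between long and no access in the lateral hypothalamus departed from that of the other 5 regions in Nlgn3, by 2.19, and in Nrp1, by -0.45, in the fit of all arrays. In other pairs of regions the access groups did not overlap, with the cocaine group higher in one region and lower in the other. These pairs were not tested against each other. Of all probe sets, 29.8% did not overlap between long and no access in lateral hypothalamus, 24.9% in septum and 24.1% in ventral tegmental area. The share was 9.76% in nucleus accumbens and 3.24% in medial prefrontal cortex. For short and no access it was 25.9% in lateral hypothalamus and 3.53% in medial prefrontal cortex. Between long and no access, Nlgn3 differed by 1.95 in lateral hypothalamus and -0.26 in septum, and Sdc3 by 1.59 and -0.53. Nptxr-A differed by 0.47 in lateral hypothalamus, 0.32 in nucleus accumbens and 0.26 in ventral tegmental area, and by -0.87 in septum. Nptxr-B differed by 0.44 in lateral hypothalamus and 0.51 in medial prefrontal cortex, and by -0.71 in septum. Between short and no access, Nrp1 differed by 0.15 in medial prefrontal cortex and -0.37 in lateral hypothalamus.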

How the results depend on the processing

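In the lateral hypothalamus 7, 2 and 2 of 10 probe sets passed by limma (long against no, short against no and long against short access), and over the other 5 regions 3, 1 and 0. Leaving out 1 array gave 6 to 8, 2 to 4 and 1 to 2 in the lateral hypothalamus, 2 to 4, 1 and 0 in the other regions, 1 to 4 for the test of the lateral hypothalamus against the other regions (main 2) and 41 to 43 of 60 for region levels (main 42). Between long and short access in the lateral hypothalamus the count was 1 with the deposited values, with quantile normalization, with no filter and with a filter at a signal of 200, and quantile normalization gave 1 between short and no access. No filter gave 1 in the other regions between long and no access. One fit of all 63 arrays gave 2, 0 and 0 in the lateral hypothalamus and 0 and 0 between long or short and no access elsewhere. The spike-in covariate gave 0, 0 and 1 in the lateral hypothalamus and 1 elsewhere between long and no access. Array weights gave 2 in the other regions between short and no access and 7 for the test against the other regions; leaving out the 3 medial prefrontal cortex arrays numbered 3 gave 5 there. With the no access arrays alone, which are fewer, 12 of the 42 region calls no longer passed and 1 turned its sign. The latter was Nrp1 of the lateral hypothalamus against the other regions, at 0.15. Sdc3 of medial prefrontal cortex turned to 0.061 without the number 3 arrays. The causes were not tested.

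Same-numbered arrays correlated at 0.03 to 0.34 in lateral hypothalamus, -0.12 to 0.22 in nucleus accumbens, -0.18 to 0.32 in amygdala, 0.06 to 0.15 in septum, -0.04 to 0.31 in ventral tegmental area and -0.00 to 0.79 in medial prefrontal cortex, after removal of group means. Every array correlated best with its own number in septum (9 of 9), and in the other regions 8 of 9 (ventral tegmental area), 6 of 9 (medial prefrontal cortex), 7 of 12 (lateral hypothalamus), 5 of 12 (nucleus accumbens) and 4 of 12 (amygdala) did, as a hint from the data. With the replicate block, 2 probe sets passed between short and no access in the other regions and 5 in the test of the lateral hypothalamus against them, and all called probe sets of the lateral hypothalamus numbered 237, 203 and 103, against 213, 161 and 64 without it. Sdc3, Nptxr-B and Ctnnd2 were the members gained in that test (1.86, 0.56 and 0.51), and Sdc3 in septum, between long and no access, reached an adjusted p of 0.041 by limma, and Nptxr-B there, between short and no access, 0.033. Region levels have no such fit, since the numbers lie within regions. Signals near 32 limit Nlgn3 and Sdc3 in ventral tegmental area and on the lowest lateral hypothalamus arrays.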
